A study of Mus musculus with 6 samples.

Results

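Transforming growth factor beta 1 (Tgfb1), its co-receptor Tgfbr3, the matricellular target Ctgf, the muscle actins Acta2 and Actc1, the actin-binding protein gene Tagln and the cytoplasmic actin Actb were followed in mouse fibroblasts exposed to dermatan sulfate. These 7 genes were taken by their symbols, with no threshold on a measured value, from the 89 gene assays of a wound healing PCR array. Primary skin fibroblasts from C57BL/6 neonates, at passages 3 to 5, had been scratched as a monolayer and then kept either in plain DMEM (control, 3 cultures) or in DMEM that contained 2,4-DS at 50 µg/mL (DS, 3 cultures), a dermatan sulfate of the ascidian Styela plicata. Both groups received mitomycin C at 50 µg/mL, which blocks proliferation, so the control cultures were wounded and arrested as well. The number of mice behind the cultures is not given in the sources used here, the series design calls the cultures biological triplicates, and the duration is given as 24 h of DS and as a 72 h incubation in the labels and as 48 h in the study's methods. The DS dose is that of the methods, since the labels list concentrations from 10 to 1000 µg/mL without tying one to a sample.

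Latent TGF-beta 1 is stored in the matrix and is released by integrins and proteases, after which it signals through a receptor pair to which betaglycan, the product of Tgfbr3, presents the ligand. In wounded skin this signal turns fibroblasts into myofibroblasts, contractile cells that are defined by stress fibres containing alpha smooth muscle actin, the product of Acta2. Ctgf is a classical early target of the pathway, Tagln encodes transgelin (SM22), an early smooth muscle and myofibroblast marker, Actc1 encodes the cardiac alpha actin, and Actb encodes the actin that every fibroblast uses for its cytoskeleton. Transcription of the actins and of Tagln is classically driven by serum response factor, which binds the CArG box.

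The RefSeq promoter table (GRCm38.p6) held windows of 250 bases before to 50 bases after the start for Tgfb1, Acta2 and Actc1, while Tgfbr3, Ctgf, Tagln and Actb are named only. The stretches of the 2 muscle actins that carry CArG-like sequence are shown because these are the genes of the set whose transcripts were looked for as myofibroblast and muscle markers and had no CT at or under the cutoff used below. They lie on the minus strand at chr19:34255388-34255467 for Acta2 and chr2:114052903-114053060 for Actc1, upstream of the start, and are written 5′ to 3′ with CArG boxes and their variants with at most 1 G or C in the A/T core in capitals.
Acta2: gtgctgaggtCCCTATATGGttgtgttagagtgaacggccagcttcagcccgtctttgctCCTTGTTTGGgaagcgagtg
Actc1: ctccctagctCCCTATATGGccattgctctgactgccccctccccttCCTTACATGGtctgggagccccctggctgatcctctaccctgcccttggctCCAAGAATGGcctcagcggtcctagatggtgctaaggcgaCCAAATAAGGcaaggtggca
The last capitals of Actc1 are a full CArG box, which 1.63% of the 32851 promoter windows hold. A full box or the variant form is present in 9.98% of them. Both strands read the same in this search because the box is a palindrome in its defining letters. The Tgfb1 window held neither form, and a match is a description of the letters, not of factor binding.

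Each sample was run on 1 array, and the value read from a well is its CT, the number of cycles needed for its fluorescence to pass a fixed threshold. More template gives an earlier CT, ideally by 1 cycle for each step on the log2 scale. A CT over 36, or none, was treated as not detected. For the comparison of groups each CT was taken relative to the array's own mean CT of Egfr, Hsp90ab1 and Ccl7, genes detected in both groups, and the sign was turned, which gives −ΔCT on a log2 scale. The 3 normalizing genes had a mean CT between 30.18 and 30.37 over the 6 arrays. According to the paper, software chose them automatically from these arrays for their stable level, so this closeness follows from the choice. Ccl7 and Egfr belong to the wound healing genes of the array, not to its housekeeping genes. The arrays themselves stood apart by group: 25 or 26 gene assays were detected in each control array and 58 to 60 in each DS array. The genomic DNA control crossed the threshold in the DS arrays at 33.08, 34.02 and 33.78 cycles and in no control array. The paper reports no genomic DNA contamination from a quality control run of each RNA sample, made before these arrays. The array also holds 3 wells of one reverse transcription control assay. In the control arrays the second of these wells gave CT values of 22.74, 21.68 and 23 and the first gave none, whereas in the DS arrays the first gave 29.56, 30.18 and 28.95 and the second gave 39.69, none and 41. The third gave 38.03 in control replicate 1, none in control replicates 2 and 3, and 32.77, 31.55 and 32 in the DS arrays. Wells of the same assay thus lay 10.13 and 12.05 cycles apart within 2 of the DS arrays and 15.29 cycles apart within control replicate 1. The 3 positive PCR control wells gave no CT in any array. The part of these array differences in the results below was not tested. Whether each well of each array held the assay named for it was not tested either, so every CT below is that of the well labelled with the gene.

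**Figure D1:**
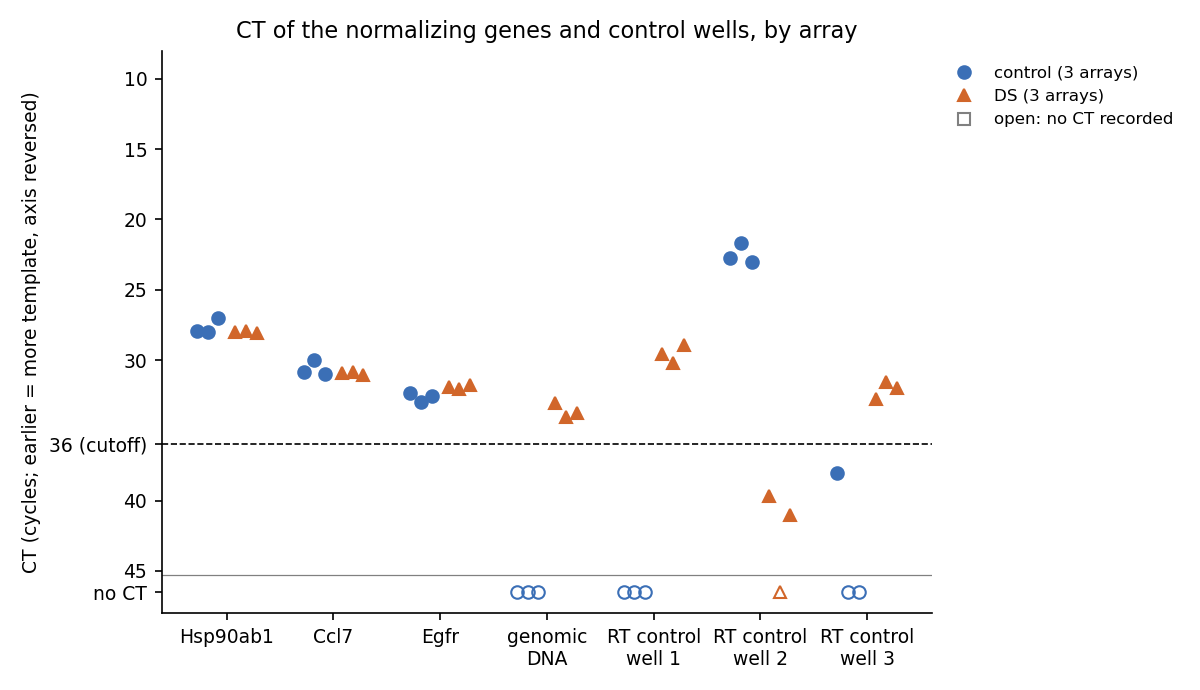
CT in cycles (reversed axis) of the normalizing genes, the genomic DNA control and the 3 reverse transcription control wells, with circles for the 3 control arrays, triangles for the 3 DS arrays and open symbols where no CT was recorded. The normalizing genes, which were chosen for a stable level in these arrays, lie at similar cycles in both groups. The genomic DNA control has a CT in DS arrays only. The first reverse transcription well has a CT in DS arrays only, and the second has an early CT in control arrays and a late one or none in DS arrays.

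The labelled cell type was read against its markers. Of the 6 fibroblast genes Col1a1, Col1a2, Col3a1, Col5a1, Fgf7 and Mmp2, none was detected in a control array and 5 were detected in DS arrays, the exception being Col5a1. Their summed level, 2^(−ΔCT) over detected wells with undetected wells counted as 0, was 0 in each control array and between 197.7 and 327.4 in the DS arrays. Of the epithelial genes Cdh1, Itga6 and Itgb6, only Itgb6 was detected, in DS arrays only, with a summed level between 1.24e+06 and 1.68e+06 that was far above that of the fibroblast genes, although sums over different assays carry their unknown efficiencies. Among the leukocyte genes Ctsg, Cd40lg, Il2, Il10 and Tnf, the first 2 were detected in DS arrays and none in control arrays, with a summed level of at most 0.493. The hepatocyte genes split, Vtn being detected in control arrays only and Fga and Plg in DS arrays only, and their summed level was 49.6 to 85.6 in control and 0.287 to 0.715 in DS. The control arrays thus had no CT for these 6 genes or for the cytoplasmic actin described below. Other genes that fibroblasts express were detected there, among them Col5a2 at a CT of 23.76, 24.05 and 23.31 in control replicates 1, 2 and 3, and Col4a1 and Hgf in all 3 control arrays. Fewer cells and less RNA per cell cannot be told apart in such bulk samples, and the part of RNA input in the difference was not tested.

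None of the 7 genes was detected in a control array. In the DS arrays 3 of them were detected, Actb and Tagln at very early cycles and Ctgf at intermediate ones, while Actc1 and Tgfb1 gave CT values only over the cutoff and Acta2 and Tgfbr3 gave no CT at all. Over all 89 gene assays, 46.1% were detected in DS arrays only and 24.7% in no array, so that 3 of 7 found in DS only is close to the share of the whole array. For Actb, Tagln and Ctgf the rule that admits a gene to the test was met through the DS arrays alone, so a difference in that direction was built in.

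**Figure D2:**
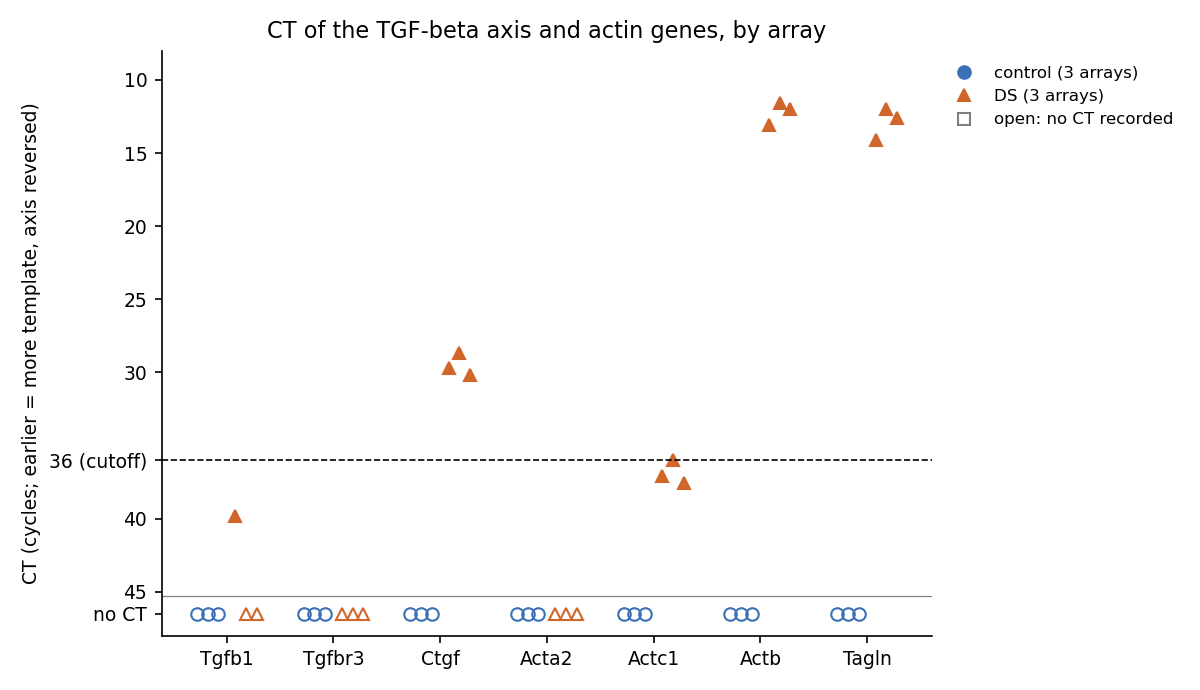
CT in cycles (reversed axis) of the 7 genes in each of the 3 control arrays (circles) and 3 DS arrays (triangles), with the cutoff of 36 as a dashed line and open symbols where no CT was recorded. Actb and Tagln lie between 11.55 and 14.07 cycles and Ctgf between 28.69 and 30.14 in DS, and every control well is without a CT.

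The ligand was barely read by these arrays. Tgfb1 had a CT of 39.81 in DS replicate 1 and none in DS replicates 2 and 3 or in the 3 control arrays. Taken from the genomic DNA control of the same array, that single value gave a difference of −6.73 cycles, so that the gene was read later than genomic DNA. As neither group had a detected well, Tgfb1 has no fold change at the cutoff of 36. With a cutoff of 40 the log2 difference was 0.05 (standard error 0.24) and not past the threshold (adjusted p = 0.844, limma). A difference in Tgfb1 was not detectable with these arrays, which does not show equal levels. Tgfbr3, the co-receptor, had no CT in control replicates 1, 2 and 3 or in DS replicates 1, 2 and 3, whatever the cutoff.

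Ctgf, which encodes a secreted CCN protein that promotes matrix deposition and adhesion, had a CT of 29.69, 28.69 and 30.14 in DS replicates 1, 2 and 3, and no CT in control replicates 1, 2 and 3. The 3 DS arrays thus lay within 1.45 cycles of each other and did not overlap with the control arrays. The mean CT in DS was 29.5 ± 0.742 (SD, n = 3), at position 30 among the 58 gene assays detected in all 3 DS arrays, ordered from the earliest. Against a CT of 36 set in the control arrays, Ctgf was higher in DS by at least 6.48 in −ΔCT (standard error 0.41), which passed the threshold (adjusted p = 4.51e-07, limma). Ctgf was admitted to the test through the DS arrays alone, so the direction was built in. In units of the normalizing genes, 2^(−ΔCT), Ctgf lay between 1.12 and 3.04 in the DS arrays, and the authors' deposited average was 1.67 in DS. The Ctgf wells crossed the threshold 3.39, 5.33 and 3.64 cycles before the genomic DNA control of the same array. Of the 67 gene assays tested, 91.0% passed the threshold (adjusted p up to 0.05), 71.6% as higher in DS and 19.4% as lower. The median log2 fold change over all of them was 4.71, and Ctgf was at position 27 from the top.

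The muscle actins gave no usable level. Acta2, the defining myofibroblast gene, was without a CT in control replicates 1, 2 and 3 and in DS replicates 1, 2 and 3. Actc1 gave CT values of 37.11, 36.01 and 37.55 in DS replicates 1, 2 and 3 and none in the control arrays. The value of DS replicate 2 missed the cutoff by 0.01 cycles, and it was the closest of the 7 genes to it from outside, the closest from inside being Ctgf at 30.14. Over all gene assays, 3 wells of the DS arrays lay no more than 0.05 cycles over the cutoff. In each DS array Actc1 crossed the threshold later than the genomic DNA control, and the CT of the control well minus that of Actc1 was −4.03, −1.99 and −3.77 cycles. With a cutoff of 40 in place of 36 Actc1 entered the test, at a log2 fold change of at least 3.10 against a CT of 40 (standard error 0.42, adjusted p = 0.000186, limma), below the median of 6.53 over the 76 gene assays tested at that cutoff. Actc1 was admitted through the DS arrays alone, with every control value set to 40, so the direction was built in. The part of genomic DNA in these late Actc1 values was not tested. The 2 promoters shown above, of which only that of Actc1 holds a full CArG box, therefore belong to genes without a CT at or under 36 in any array.

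Tagln, the transgelin gene, had a CT of 14.07, 12 and 12.63 in DS replicates 1, 2 and 3 and no CT in control replicates 1, 2 and 3. The DS values spanned 2.07 cycles, with replicate 1 the latest, and none of them came near the control arrays. The mean was 12.9 ± 1.06 (SD, n = 3), and the log2 fold change was at least 23.09 (standard error 0.52, adjusted p = 6.31e-10, limma). On the linear scale of 2^(−ΔCT) the highest DS array was 4.25 times the lowest for Tagln. The authors' deposited average of 166234 for DS lay between the lowest and the highest array computed here, 75630 and 321249.

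Actb, the cytoplasmic actin that the array carries as a housekeeping gene, had a CT of 13.05, 11.55 and 12.01 in DS replicates 1, 2 and 3 and none in control replicates 1, 2 and 3. A gene that the array offers as a reference was thus read at a very early cycle in every DS array and at no cycle in any control array. The paper likewise reports that Actb varied with the treatment on these arrays, and it did not normalize to this gene. The paper reports that Actb was detected, without statistical variation, in its quality control run of the RNA made before these arrays. No CT in a control well is therefore not read here as absence of the Actb transcript. Why the arrays differ from that run was not tested. Its log2 fold change was at least 23.79 (standard error 0.42, adjusted p = 1.85e-10, limma). The mean CT in DS was 12.2 ± 0.768 (SD, n = 3), and the highest array was 2.86 times the lowest for Actb on the scale of 2^(−ΔCT). Actb has processed pseudogenes, from which genomic DNA can give a product of the same length, and the genomic DNA control crossed the threshold 20.03, 22.47 and 21.77 cycles after Actb in the 3 DS arrays. The corresponding gaps for Tagln were 19.01, 22.02 and 21.15 cycles. The part of genomic DNA in the Actb and Tagln values was not tested.

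For Actb, Tagln and Ctgf the exact two-sided permutation test over the 6 samples gave p = 0.1, the smallest that 3 against 3 allows, and 92.5% of all tested gene assays likewise had groups that did not overlap. The fold changes are bounds against the cutoff, and their standard errors and limma p treat a CT of 36 as if it had been measured.

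**Figure D3:**
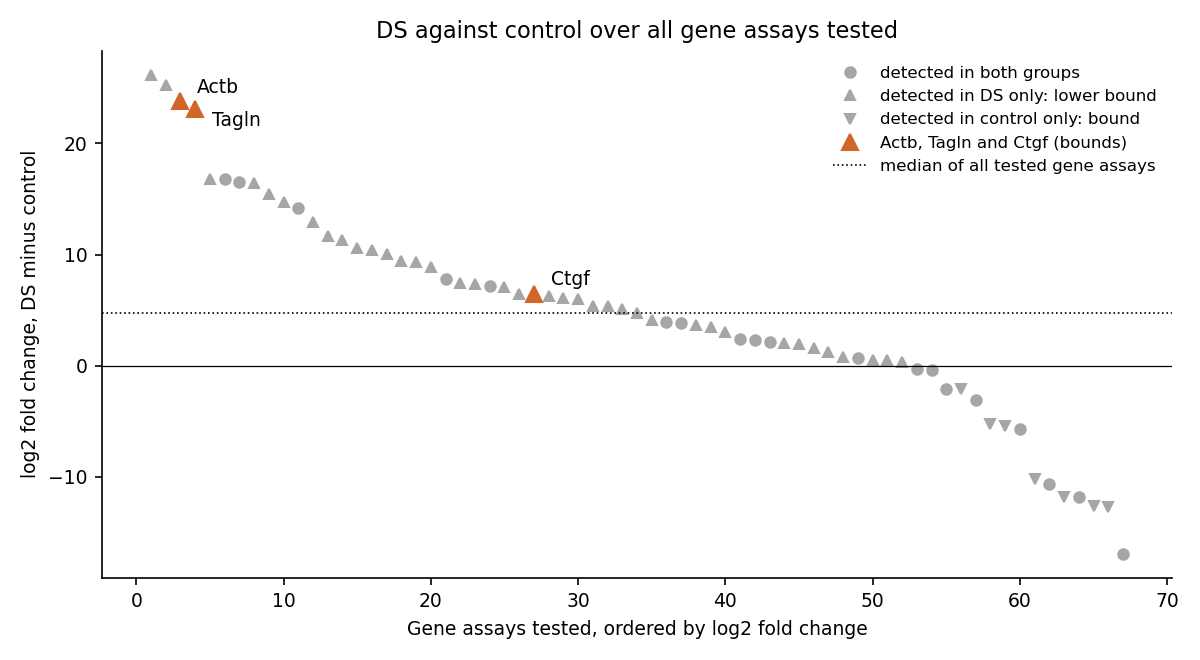
Log2 fold change, DS minus control, of the 67 gene assays tested, in order, with Actb, Tagln and Ctgf in colour, triangles for bounds where a group had no CT at or under 36, circles for genes detected in both groups and the dotted line at the median of all tested gene assays, 4.71. Actb and Tagln lie at positions 3 and 4 and Ctgf at position 27.

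The CT values of Actb and Tagln lay close to each other in the DS arrays. Tagln crossed the threshold later than Actb by 1.02, 0.45 and 0.62 cycles in DS replicates 1, 2 and 3, so the difference between the 2 assays varied over 0.57 cycles while Tagln itself varied over 2.07. Of all gene assays, Actb was the nearest to Tagln and Tagln the nearest to Actb, with a mean absolute difference in CT of 0.348 cycles over the 6 arrays, in which undetected wells count as 36. The 3 control arrays add differences of 0 to this mean by construction, and over the DS arrays alone the difference was 0.697 ± 0.293 cycles (SD, n = 3). Itgb6, the integrin subunit that pairs with alpha v on epithelial cells, was also among the assays nearest to both, at 1.55 cycles from Tagln and 1.20 from Actb. Nearness here compares the cycles of different assays, whose amplification efficiencies are unknown, and is not a comparison of transcript levels.

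The CT of Ctgf lay 16.64, 17.14 and 18.13 cycles after that of Actb in DS replicates 1, 2 and 3. The assays nearest to Ctgf were Col3a1, a fibrillar collagen chain, at a mean absolute difference of 0.233 cycles, Mmp2, a gelatinase, at 0.315, and Tgfa, a ligand of Egfr, at 0.437, each over 6 arrays and each without a detected control well, so that the control arrays again add 0 by construction. DS replicate 2 gave the earliest CT for Ctgf, Tagln and Actb alike, and it was the earliest array for 26 of the 58 gene assays detected in all 3 DS arrays, against 12 for replicate 1 and 20 for replicate 3.

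Actb was the only one of the 7 among the 5 housekeeping genes. B2m, the light chain of MHC class I, moved in the same direction, with CT values of 22.04, 21.91 and 19.89 in the DS arrays and none in control. The difference in CT between B2m and Actb varied over 2.48 cycles within the DS arrays. Gapdh was without a CT in every array, Gusb gave one of 41.1 in DS replicate 3 alone, and Hsp90ab1 was detected in all 6 arrays with a log2 difference of −0.36 (standard error 0.33, adjusted p = 0.318, limma). Hsp90ab1 is part of the normalizing mean from which its own difference is taken. It was also chosen for a stable level in these arrays, so this value does not test its stability. With the 5 housekeeping genes as the reference, of which Actb itself is one, the log2 fold change was 15.47 for Tagln and −1.14 for Ctgf (standard error 0.46, adjusted p = 0.0422, limma), since that reference holds Actb and B2m, which lie at the cutoff in control and far under it in DS. Under that reference the median of all tested gene assays was −2.92.

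Genes that act on either side of TGF-beta 1 were counted from lists of known roles. Of 8 genes for the release of latent TGF-beta, namely the integrin subunits Itgav, Itgb1, Itgb3, Itgb5 and Itgb6 and the proteases Plg, Mmp2 and Mmp9, 6 were tested, and each of them was detected in DS arrays only, so that no decrease could have been found. By limma 5 rose, Itgb1 did not pass the threshold (at least 0.56, adjusted p = 0.180), and the increases were bounds from 1.96 for Itgav to 26.18 for Itgb6 on the log2 scale. Over the whole array 46.1% of the gene assays were detected in DS arrays only, and 71.6% of those tested were higher in DS. The median over the 6 was 4.97, beside 4.71 over all tested gene assays. Itgb3 gave a CT in DS replicate 1 only, at 38.15, and Itgb5 gave none.

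Of 8 matrix and inhibitor genes that TGF-beta is known to induce, 5 were tested and all of these rose (limma), beside 71.6% of all tested gene assays. Col1a2 (at least 12.93 on the log2 scale) and Col1a1 (at least 11.31) encode the chains of type I collagen, and Col3a1 rose by at least 6.09, these 3 having been admitted to the test by the DS arrays alone. Col4a1, a basement membrane chain, and Col5a2, which joins type I fibrils, were detected in both groups and rose by 2.39 (standard error 0.39) and 2.17 (standard error 0.32). The median over the 5 was 6.09. The other 3 genes of this list had no detected well, among them Timp1, a metalloproteinase inhibitor, with a CT of 38.12 in DS replicate 2 alone, and Col5a1, with CT values between 39.98 and 41.03 in the DS arrays. The targets of the pathway were therefore split between 5 of the collagens and Ctgf, which were detected in DS, and Acta2, Timp1 and Col5a1, which were not detected in either group. Over all 89 gene assays, 60 were detected in DS arrays and 24.7% in no array, so a split of this kind is seen over the whole array. Wisp1, a CCN relative of Ctgf, gave no CT in any array.

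The GTPases Rhoa, which drives stress fibre assembly, and Rac1, which drives lamellipodia, were both detected in DS arrays only, and their log2 fold changes were at least 10.37 (standard error 0.43) and 6.00 (standard error 0.78), both past the threshold by limma in the direction that detection in DS alone had fixed. Of 5 factors known to oppose myofibroblast conversion, Ptgs2, Il1b, Fgf2 and Ifng rose and Hgf fell. The first, the prostaglandin synthase, rose by 14.20 (standard error 0.48), Fgf2 by 7.82 (standard error 0.43) and Ifng by 7.19 (standard error 0.57), all 3 being detected in both groups, Fgf2 in 2 of the 3 control arrays. Il1b was detected in DS arrays only, which fixed its direction, and rose by at least 10.61 (standard error 0.41). Hgf was detected in control arrays only and changed by at least −5.28 (standard error 0.29, adjusted p = 1.76e-07, limma), its direction being fixed in the same way. The median over the 5 was 7.82. Genes on both sides of the pathway were thus among those higher in DS, as were 71.6% of all tested gene assays, and no test sets these lists apart from the rest of the array.

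**Figure D4:**
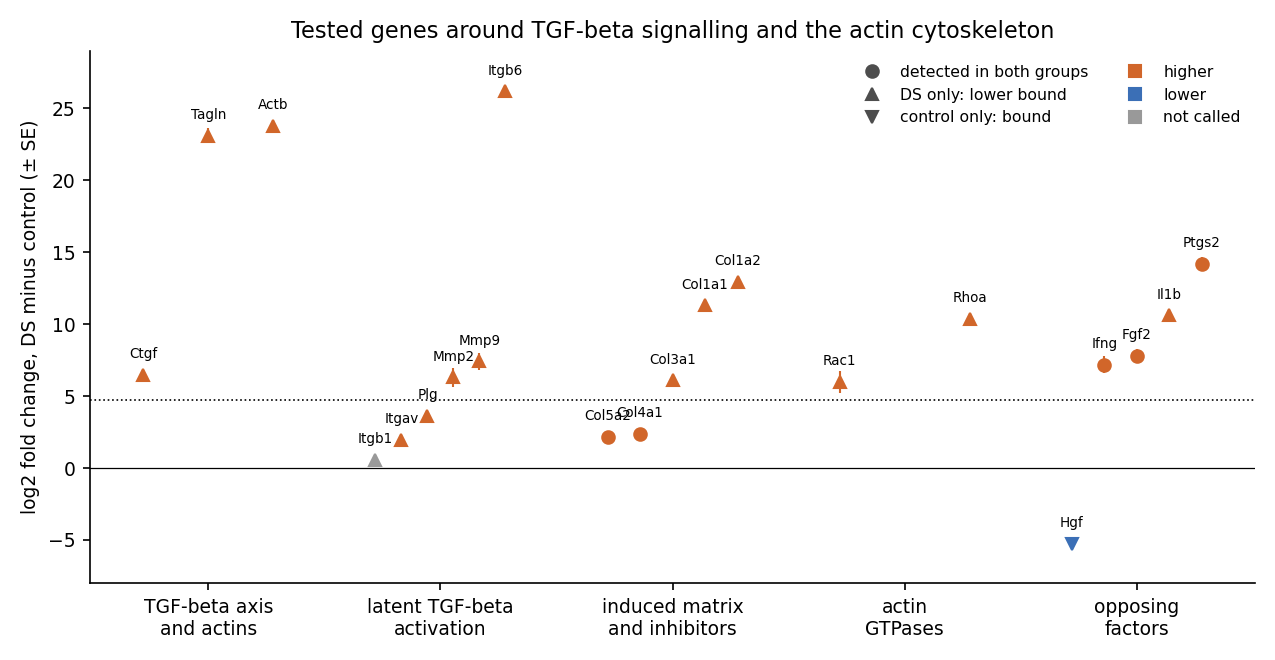
Log2 fold change, DS minus control, with its standard error, of the tested genes in each list, with circles for genes detected in both groups, triangles for bounds and the dotted line at the median of all tested gene assays, 4.71. Hgf at −5.28 is the only gene shown that was lower in DS, and Itgb1 at 0.56 the only one that was not called.

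The size of the 3 bounds followed the cutoff and the reference. With undetected wells set to cycle 45 and no cutoff, the log2 fold change was 32.79 for Actb, 32.09 for Tagln and 15.48 for Ctgf, and with a cutoff of 35 it was 22.79, 22.09 and 5.48. With the median CT of the gene assays detected in all 6 arrays as the reference it was 26.74 for Actb. Leaving out any one array kept Actb between 23.46 and 24.22, Tagln between 22.64 and 23.68 and Ctgf between 6.07 and 6.80.

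**Figure D5:**
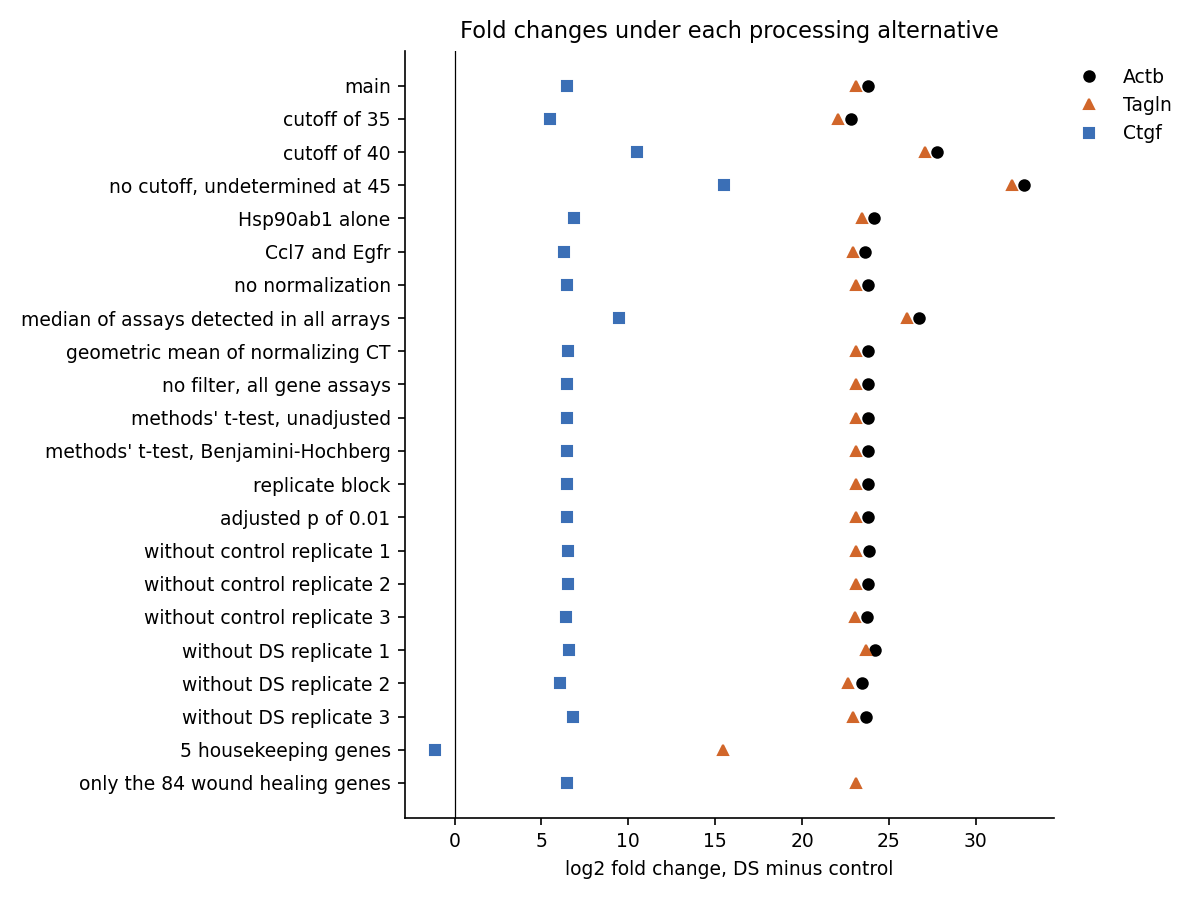
Log2 fold change, DS minus control, of Actb, Tagln and Ctgf under the settings used in the report (main) and each alternative. The values lie to the right of 0 except that of Ctgf with the 5 housekeeping genes, −1.14, and Actb has no value where it is part of the reference or is not among the genes fitted.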

How the data were processed

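RNA of 6 cultures (control 3, DS 3) was run after reverse transcription on RT2 Profiler mouse wound healing arrays with SYBR Green. The authors deposited the CT of each well, without cutoff or normalization, and a ratio, 2^(−ΔCT), averaged over each group, which was used only for comparison. Here a CT over 36 or absent was replaced by 36, values were taken relative to the arithmetic mean CT of Egfr, Hsp90ab1 and Ccl7, and the 67 of 89 gene assays detected in at least 1 array were fitted with limma 3.58.1 (lmFit, eBayes) in R 4.3.3, with Benjamini-Hochberg adjustment over the 67 and a threshold of 0.05. The study's methods test each gene alone on 2^(−ΔCT), which was run as an alternative. The script was tested on simulated data. That simulation had no undetected wells, so it does not cover calls against values set to 36. The genes, lists and tests were chosen with earlier results of these data known. Named genes are the 7, the reference and housekeeping genes, list members and the 3 assays nearest in CT to each gene detected. A few genes enter the counts but are not reported here by name. PCR arrays have no sequencing depth, so the number of arrays and the spread of CT limit the precision. The limma p rest on the spread between these cultures, moderated over the 67 gene assays. A group whose wells were all set to 36 adds only the spread of the normalizing genes. This holds for the control values of Actb, Tagln and Ctgf. Alternatives were other cutoffs, references, gene filters, tests and thresholds, a replicate block and each array left out.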

Additional observations from a re-analysis of the deposited data

Results flagged for a closer look

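Signals in wells outside the comparisons set the groups apart. The genomic DNA control had a mean CT of 33.6 in the DS arrays and no CT in the control arrays. The first well of the reverse transcription control had a mean CT of 29.6 in DS and no CT in any control array, while the second well had a mean CT of 22.5 in the control arrays. With 3 arrays in a group no array was tested for lying apart from its group.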

How the results depend on the processing

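Actb was called higher in DS in each of its 19 alternatives and Tagln and Ctgf in 20 and 19 of 21. The control wells of these genes had no CT and were set to a fixed late cycle in every alternative. Their direction was therefore built in unless the reference was changed, and these counts do not test it. With the methods' test on 2^(−ΔCT) after Benjamini-Hochberg adjustment, Tagln (23.09, adjusted p = 0.0712) and Ctgf (6.48, adjusted p = 0.0562) missed the threshold, and the number of the 7 genes called higher fell from 3 to 1, of all gene assays from 48 to 28. With the 5 housekeeping genes Ctgf reversed to −1.14 and 19 gene assays were higher and 40 lower, in place of 48 and 13 (32.2% of called genes higher in place of 78.7%). Among assays detected in all 6 arrays, which leaves out the 7 genes by construction, 8 were higher and 6 lower, with 0 of the 7 genes. A cutoff of 40 or none raised the number of the 7 genes with a CT from 3 to 5. Leaving out each array gave 46 to 48 higher and 13 lower. Same-numbered cultures did not deviate together (r of 0.0832, 0.0506 and −0.199 over 17 assays), so the numbers were not taken as pairs. The fit with a replicate block kept 23.79, 23.09 and 6.48 for Actb, Tagln and Ctgf and called 47 higher, 13 lower and 3 of the 7 genes. A late or absent CT limits what can be said of Tgfb1, Tgfbr3, Acta2 and Actc1.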
